A study of Mus musculus with 287 samples.

Results

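Olig2 was expressed in 59 single cells from mouse cerebral organoids, 23.9% of the cells that passed a filter of at least 1000 detected genes. These kept cells numbered 90, 80 and 77 on the 3 plates of the study, and 6, 26 and 27 of them expressed Olig2. The members were selected on their own Olig2 counts. A cell was taken as Olig2-expressing at an Olig2 level of 10 CPM or more, where CPM are the exon counts of a gene scaled to 1e+06 exon counts of that cell. It was taken as Olig2-zero at an Olig2 exon count of 0, which held for 80, 43 and 45 kept cells on plates 1, 2 and 3, or 68.0% of kept cells. The other 20 kept cells lay between these limits and entered neither class. The filter removed 37 cells that carry a clone label, and 3 cells carry none. Because Olig2 chose the members, its own level is described here without a test.

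All cells came from organoids of mouse embryonic stem cells with the genotype MADM-11GT/TG;Emx1-CreER+/-, grown with the WNT inhibitor IWR1 and without SMAD inhibitors. MADM (mosaic analysis with double markers) lets Cre recombine homologous chromosomes in a dividing progenitor, which can leave the daughter lineages in different colours, green and red. The tamoxifen-dependent Cre is driven from the Emx1 locus, a gene of dorsal telencephalic progenitors, so labelled clones start in cells that used that locus. Organoids received 60 nM 4-hydroxytamoxifen on day 13 to start recombination, and cells described in the protocol as fluorescent neurons were drawn singly into a glass pipette on day 20. Each labelled cell has a clone, a clone type (SN or N, neither spelled out in the labels), a colour and 1 of 3 plates. Olig2-expressing and Olig2-zero cells come from the same organoid system, and tests between them were made within clones unless stated. No organoid or culture is named, so p-values measure the spread between clones, which may share an organoid, and may be too small.

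Olig2 is a basic helix-loop-helix transcription factor that lies beside its paralogue Olig1. It is best known for specifying oligodendrocyte precursors, which go on to express Sox10, Pdgfra, Cspg4 and, later, myelin genes. It is also made earlier, in dividing progenitors of the ventral forebrain and in dorsal radial glia that are turning from neuron to glia production, where Egfr is made as well. Radial glia are the neural stem cells of the developing cortex and carry Sox2, Pax6, Fabp7, Slc1a3 and Vim, whereas young neurons carry Stmn2, Tubb3 and Dcx, and young cortical excitatory neurons Neurod6 and Tbr1.

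Olig2 was not a matter of 1 or 2 counts in most of these cells. The 59 expressing cells held 5 to 1200 Olig2 exon counts, and their level ran between 10.1 and 611 CPM with a median of 44.9. In 33 of them at least 100 counts were found, and only 4 had 10 counts or fewer. Whether a count is a read or a molecule is not given, so these counts do not show how many Olig2 molecules a cell held. The 3 cells just above the limit stood at 10.1, 10.6 and 11.2 CPM, with 5, 90 and 30 counts, and the 3 just below it at 9.58, 8.83 and 8.49 CPM, with 36, 1 and 84 counts. The level did not separate into 2 clear groups at the limit, since the 20 cells in between reached down to 0.123 CPM. Among the Olig2-zero cells, 96 were deep enough for 10 CPM to be at least 10 counts, and in 39 it would have been fewer than 3 counts, so a cell at the limit could have been missed there.

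**Figure D1:**
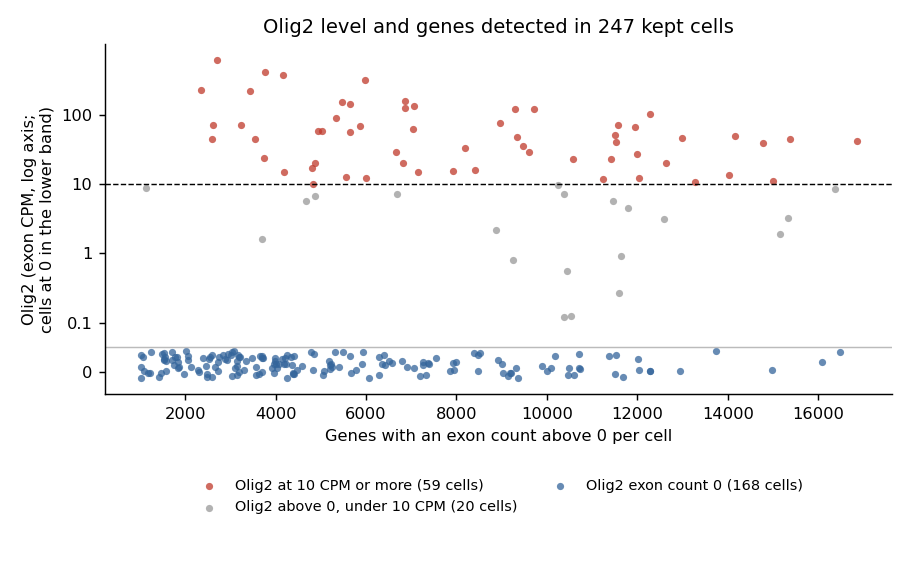
Olig2 level of each kept cell in exon CPM (vertical log axis) against the number of genes with an exon count (horizontal axis). Red points are the 59 Olig2-expressing cells, grey points the 20 cells under 10 CPM (dashed line) and blue points the cells at 0, spread at random within the lower band; the 4 cells of highest level have 2712 to 5987 genes, and most cells at 0 have fewer than 5000.

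Intron counts of Olig2, which the choice of cells did not use, were found in 4 of the 59 expressing cells, in 1 of the 20 between and in none of the cells at 0. Within clones the Olig2 intron level averaged 0.502 CPM (SD 2.02) in expressing cells and 0 in Olig2-zero cells, over n = 31 clones. It was higher in expressing cells in 3 clones and equal in the rest, too few differing clones for a sign-flip test to pass at any values, so no test is given.

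The class differed from its comparison in the libraries themselves. Expressing cells held a median of 3094683 exon counts, against 1253298 in Olig2-zero cells, over a range of 6171 to 13040432 across all kept cells. They held a median of 7066 detected genes, against 4254.5. In the 31 clones that contained both classes (48 expressing and 80 Olig2-zero cells), expressing cells averaged 8769 genes (SD 3572) and Olig2-zero cells 4796 (SD 2590), and the count was higher in 27 of 31 clones. After every cell was thinned to 100000 exon counts, 5812 genes (SD 2071) remained in expressing and 3742 (SD 1640) in Olig2-zero cells, higher in 25 of 29 clones. The log2 total exon count was higher by 1.71, in 26 of 31 clones. The choice of cells used the exon total, and an Olig2 count of 0 is more easily met in a shallow library, so these 3 measures are given as a description with no test. The mitochondrial share of exon counts averaged 4.84% (SD 2.40) in expressing and 5.90% (SD 3.55) in Olig2-zero cells, which did not pass (two-sided sign-flip permutation tests with Benjamini-Hochberg adjustment over 5 measures, adjusted p = 0.106), nor did the intron share at 30.9% (SD 12.6) against 28.8% (SD 8.57, adjusted p = 0.447). The 5 measures of this adjustment include the 3 given without a test, and the unadjusted p of the mitochondrial share by the sign-flip test was 0.0852. With expressing cells at 50 CPM of Olig2 or more, they held 1566 more genes per cell than Olig2-zero cells of the same clones.

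Alongside this gap, 99.6% of the genes in the test within clones were found in a larger share of expressing cells. Over these 7423 genes, the median gene was counted in 66.1% of expressing cells and 44.0% of Olig2-zero cells. Among cells with at least 5000 genes, called deep cells from here on, 44 expressing and 72 Olig2-zero, these medians were 77.3% and 72.2%, and 10% of the genes exceeded a difference of 17.0 percentage points. Shares of cells are therefore given below for both sets of cells, with 95% Wilson intervals that cover counting error only, and are to be read against these medians. The 5000-gene limit was chosen after the gap had been seen, and the shares carry no test.

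Set against marker genes, the 59 expressing cells showed no single identity. At least 3 of 5 oligodendrocyte precursor genes were counted in 17 of them, Fabp7 of radial glia exceeded Stmn2 of neurons in CPM in 31, and Stmn2 was counted in 58, so these groups overlap.

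Olig1, the paralogue with a similar role in the oligodendrocyte lineage, was counted in 50 of 59 expressing cells (84.7%, 73.5 to 91.8%) and in 62 Olig2-zero cells (36.9%, 30.0 to 44.4%). Its median level was 46.8 CPM in expressing cells, against 0 in Olig2-zero cells. Among cells with at least 5000 genes it was counted in 39 of 44 expressing and 37 of 72 Olig2-zero cells. The contrast differed between plates. On plate 1 Olig1 was found in 5 of 5 expressing and 13 of 40 Olig2-zero cells of that depth, on plate 2 in 16 of 19 and 16 of 21, and on plate 3 in 18 of 20 and 8 of 11. Within the 16 clones that held both classes at that depth, the share of cells with Olig1 averaged 81.3% in expressing and 73.9% in Olig2-zero cells, higher in 5 clones and lower in 3.

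Egfr, the epidermal growth factor receptor of late, glia-producing progenitors, was found in 44 of 59 expressing cells (74.6%) and 51 Olig2-zero cells (30.4%). In deep cells it was counted in 40 of 44 and 33 of 72 cells (90.9%, 78.8 to 96.4%, against 45.8%, 34.8 to 57.3%). This direction held on every plate, with 4 of 5 against 14 of 40 cells on plate 1, 17 of 19 against 12 of 21 on plate 2 and 19 of 20 against 7 of 11 on plate 3. Within the 16 clones it averaged 93.8% in expressing and 65.5% in Olig2-zero cells, higher in 8 clones and lower in 1. Thinning these deep cells to 100000 counts left Egfr in 72.7% of expressing and 31.9% of Olig2-zero cells.

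Genes that define committed oligodendrocyte precursors were present in a minority. Sox10, the transcription factor that follows Olig2 in that lineage, was counted in 16 of 59 expressing cells (27.1%, 17.4 to 39.6%) and 7 Olig2-zero cells (4.17%). Pdgfra, the platelet-derived growth factor receptor of these precursors, was found in 27 (45.8%) and 26 (15.5%), Cspg4, which encodes their proteoglycan NG2, in 10 and 8, and the transcription factor gene Nkx2-2 in 6 and 6. In the deep cells, Sox10 was in 13 of 44 expressing and 4 of 72 Olig2-zero cells, Pdgfra in 22 and 24, Cspg4 in 7 and 6 and Nkx2-2 in 6 and 4. On plate 1 Sox10 was in 1 of 5 against 1 of 40 of these cells. It was in 7 of 19 against 3 of 21 on plate 2 and 5 of 20 against 0 of 11 on plate 3. Within the 16 clones Sox10 averaged 25.0% in expressing and 10.9% in Olig2-zero cells, higher in 4 clones and lower in 3. Pdgfra was counted in a smaller share of expressing than of Olig2-zero cells of that depth on plate 3, at 8 of 20 against 6 of 11.

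Of the 5 genes Olig1, Sox10, Pdgfra, Cspg4 and Nkx2-2, at least 3 were counted in 17 of 59 expressing cells (28.8%, 18.8 to 41.4%) and in 6 Olig2-zero cells (3.57%, 1.65 to 7.57%). This combination and those that follow were chosen with the values known. All 5 were counted in 2 expressing cells, and 0 of the 5 in 5 expressing and 94 Olig2-zero cells. Sox10 and Pdgfra were counted together in 14 expressing cells and 0 Olig2-zero cells, which allows a share of up to 1.79% there. The pair was not confined to cells at 10 CPM or more of Olig2. Several cells between the limits held it too, among them clone 14 cell 1 at 0.267 CPM of Olig2, clone 43 cell 1 at 2.17 and clone 30 cell 2 at 9.58. At 5000 genes or more the pair was found in 12 of 44 expressing and 0 of 72 Olig2-zero cells, and in 1 of 5, 7 of 19 and 4 of 20 expressing cells on plates 1, 2 and 3. These 14 cells were each from a clone of its own, 8 in SN and 6 in N clones.

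The levels in these 14 cells ran widely. Clone 65 cell 2 held 215.8 CPM of Olig2, 512 of Olig1, 394 of Sox10 and 100.7 of Pdgfra. Clone 30 cell 3 held 155.2 CPM of Olig2, 177.99 of Olig1, 68.5 of Sox10 and 339 of Pdgfra, and clone 41 cell 1 held 49.9, 291, 60.1 and 121.3 CPM of the same genes. At the other end, clone 25 cell 2 held 13.4 CPM of Olig2, 3.73 of Olig1, 0.0911 of Sox10 and 13.5 of Pdgfra. Neuronal transcripts were present in most of them as well: Stmn2 stood at 2009 CPM in clone 65 cell 2, 472 CPM in clone 30 cell 3 and 4413 CPM in clone 41 cell 1, and at 0 in clone 64 cell 2, which had 410 CPM of Olig2 and 28704 CPM of Fabp7.

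Genes of later stages were found in a minority of cells of both classes. Mag, of myelin, was counted in no kept cell of either class. Gpr17 and Bcas1, of precursors about to mature, were found in 9 and 6 of 59 expressing cells and in 4 and 1 Olig2-zero cells, and at 5000 genes or more in 7 and 6 of 44 and in 2 and 0 of 72. Mog and Mbp, which belong to myelin, did not follow Olig2 at that depth: Mog was counted in 15 of 44 and 25 of 72 cells, and Mbp in 14 and 21.

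**Figure D2:**
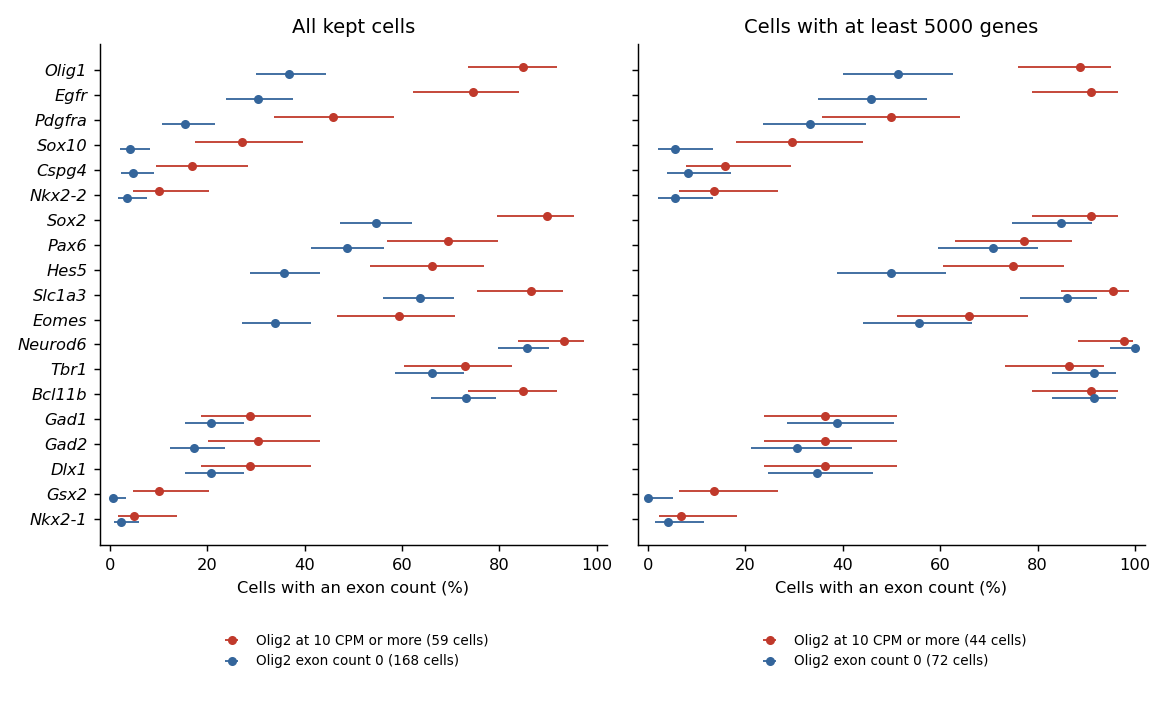
Share of cells with an exon count of each gene (horizontal axis, percent, with 95% Wilson intervals) in Olig2-expressing cells (red) and Olig2-zero cells (blue), for all kept cells on the left and for cells with at least 5000 genes on the right. In the deep cells, pooled over plates, the classes stay apart for Olig1, Egfr and Sox10 and for the ventral gene Gsx2. They overlap for the neuronal genes Neurod6, Tbr1 and Bcl11b and, pooled over plates, for the ventral genes Gad1, Gad2, Dlx1 and Nkx2-1. For Olig1 the gap is far smaller within plates 2 and 3. Within clones that held both classes, the share with Sox10 was higher in expressing cells in 4 clones and lower in 3.

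Several radial glia genes had higher medians in expressing cells. Fabp7, which encodes a carrier of fatty acids made in radial glia, was counted in all 59 expressing cells, where it ran between 83.3 and 28704 CPM with a median of 2289 CPM. In Olig2-zero cells it was found in 93.5%, with a median of 1179 CPM. The deep cells had medians of 2077 CPM in 44 expressing and 1055 CPM in 72 Olig2-zero cells, and every cell had the gene. The order of the medians was the same on each plate, at 1966 against 927 CPM on plate 1, 3715 against 1469 CPM on plate 2 and 2073 against 993 CPM on plate 3. Within the 16 clones with both classes at that depth, mean log2(CPM + 1) of Fabp7 was higher in expressing cells by 0.99 (SD 1.14), in 14 of 16 clones.

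Sox2, the stem cell transcription factor, was counted in 53 of 59 expressing cells and 92 Olig2-zero cells (54.8%), with medians of 94.6 and 2.35 CPM. In deep cells it was found in 40 of 44 and 61 of 72 cells, with medians of 101.9 and 39.6 CPM. Slc1a3, the glutamate transporter of radial glia and astrocytes, had medians of 88.9 and 29.6 CPM in the deep cells, but on plate 3 they were 25.6 CPM in expressing and 29.9 CPM in Olig2-zero cells. Aldoc, the glycolytic enzyme aldolase C of the same cells, had medians of 96.9 and 22.0 CPM, in the same order on each plate. Vim, the intermediate filament gene, had medians close together at 472 and 427 CPM, and Pax6, a transcription factor of dorsal radial glia, was counted in 34 of 44 and 51 of 72. Within the 16 clones, mean log2(CPM + 1) of Sox2 and of Aldoc was each higher in expressing cells in 9 and lower in 7. For Slc1a3 these numbers were 11 and 5, for Pax6 10 and 6 and for Vim 8 and 8. The share of cells with a count there averaged 85.4% in expressing and 87.3% in Olig2-zero cells for Sox2, and 87.5% and 88.5% for Aldoc. The groups overlapped widely for every one of these genes.

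Neuronal transcripts were nearly universal in the expressing cells, at lower levels for some. Stmn2, a microtubule regulator of young neurons, was counted in 58 of 59 expressing cells and 95.8% of Olig2-zero cells, with medians of 2009 and 2688 CPM. At 5000 genes or more its medians were 1816 and 3742 CPM, and lower in expressing cells on each plate, at 2612 against 4685, 2073 against 3517 and 1589 against 1873 CPM. Neurod6, a basic helix-loop-helix factor of young excitatory neurons, was found in 93.2% of expressing and 85.7% of Olig2-zero cells, with medians of 148.4 and 270.6 CPM. In the deep cells its medians were 206.96 and 380 CPM, and on plate 2 alone 175.9 and 175.4 CPM. Tubb3 and Dcx, of the neuronal cytoskeleton, had medians of 733 and 628 CPM in expressing deep cells, against 889 and 734 CPM in Olig2-zero deep cells. On plate 2 Tubb3 had the other order, at 667 against 633 CPM. Within the 16 clones with both classes at that depth, mean log2(CPM + 1) of Tubb3 was higher in 8 and lower in 8. For Dcx these numbers were 7 and 9, for Stmn2 5 and 11 and for Neurod6 6 and 10. Tbr1, of deep-layer neurons, was counted in 38 of 44 and 66 of 72 deep cells.

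Radial glia and neuronal transcripts occurred in the same libraries. Stmn2 and Fabp7 were both counted in 98.3% of expressing and 89.9% of Olig2-zero cells, and in every cell of both classes with at least 5000 genes. Stmn2, Neurod6 and Fabp7 were all counted in 93.2% and 79.2%. No doublet caller was run, and whether such a library held RNA of more than 1 cell was not tested. A profile of Neurod6 at 100 CPM or more with no Sox2 count was found in 5 of 59 expressing cells (8.47%) and 48 Olig2-zero cells (28.6%), and at 5000 genes or more in 3 of 44 and 9 of 72.

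The ratio of Fabp7 to Stmn2 was compared between the classes, with no test. CPM are not divided by transcript length, so a ratio of 1 has no meaning of its own and serves only to compare cells. The ratio was above 1 in 31 of 59 expressing cells (52.5%, 40.0 to 64.7%) and 44 Olig2-zero cells (26.2%, 20.1 to 33.3%). At 5000 genes or more it was above 1 in 23 of 44 (52.3%, 37.9 to 66.2%) and 9 of 72 (12.5%, 6.72 to 22.1%), with 2 of 5 against 2 of 40 cells on plate 1, 10 of 19 against 5 of 21 on plate 2 and 11 of 20 against 2 of 11 on plate 3. Expressing cells on the Fabp7 side had a median of 69.2 CPM of Olig2, 61.7 of Egfr and 152.3 of Slc1a3. The 28 expressing cells on the Stmn2 side had 28.5, 19.5 and 25.9 CPM of these genes, and more genes detected, with a median of 9378 against 5994. Olig1 had a like median on both sides, at 49.7 and 45.3 CPM.

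**Figure D3:**
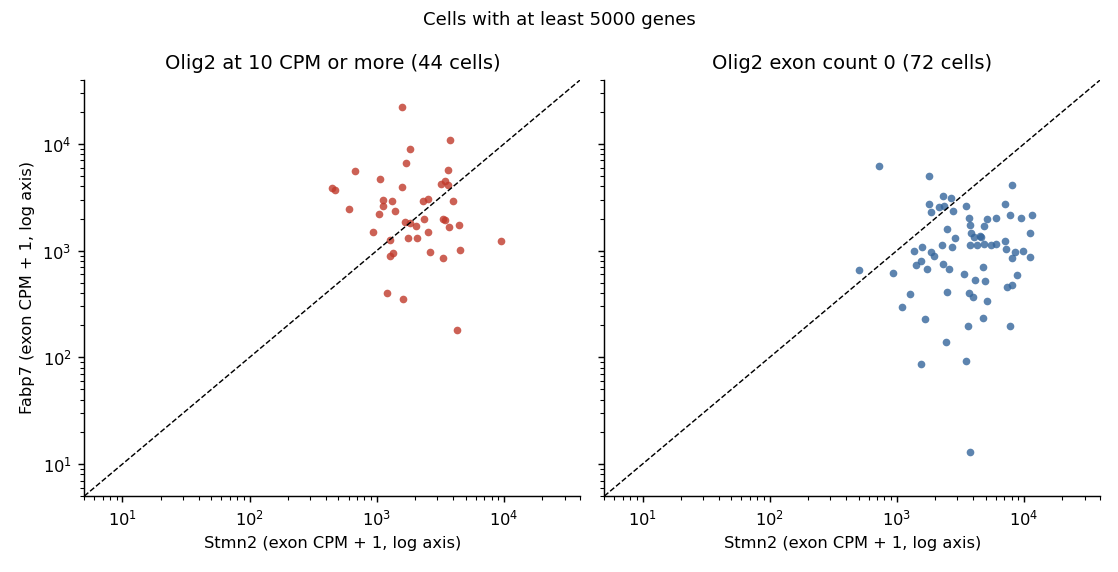
Fabp7 (vertical log axis) against Stmn2 (horizontal log axis), both as exon CPM plus 1, in the cells with at least 5000 genes. Each point is a cell; 23 of the 44 Olig2-expressing cells (left) and 9 of the 72 Olig2-zero cells (right) lie above the dashed line of equal CPM.

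Genes of the ventral forebrain, where Olig2 is also made, differed in their pattern from gene to gene and from plate to plate, and none was tested. Gad1 or Gad2, which make the transmitter GABA, was counted in 44.1% of expressing and 29.8% of Olig2-zero cells, and at 5000 genes or more in 24 of 44 (54.5%) and 37 of 72 (51.4%). These pooled shares join plates of unequal make-up, since 5 of the 44 expressing and 40 of the 72 Olig2-zero deep cells were on plate 1. By plate, Gad2 was counted in a larger share of expressing deep cells throughout, with 3 of 5 against 17 of 40 on plate 1, 8 of 19 against 4 of 21 on plate 2 and 5 of 20 against 1 of 11 on plate 3. Within the 16 clones it averaged 43.8% in expressing and 10.9% in Olig2-zero cells, higher in 7 clones and lower in 2. Gad1 had no common direction, at 2 of 5 against 16 of 40, 6 of 19 against 11 of 21 and 8 of 20 against 1 of 11 on plates 1, 2 and 3.

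Gsx2, of lateral ganglionic eminence progenitors, was counted in 6 expressing and 1 Olig2-zero cells. All 6 expressing cells were deep, against 0 of 72 deep Olig2-zero cells, which allows a share of up to 4.17%, and they comprised 1 of 5 cells on plate 1, 0 of 19 on plate 2 and 5 of 20 on plate 3. Dlx1, Dlx2 or Dlx5, transcription factors of ventral progenitors and interneurons, was found in 21 of 44 expressing and 30 of 72 Olig2-zero deep cells. Dlx2 alone was counted in 2 of 5 against 4 of 40, 2 of 19 against 6 of 21 and 6 of 20 against 0 of 11 cells on plates 1, 2 and 3. Nkx2-1, of the medial ganglionic eminence, was counted in 3 expressing and 4 Olig2-zero cells, at no more than 1.09 CPM. Emx1, whose locus drives the Cre, was counted in 24 of 44 and 38 of 72 deep cells.

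Markers of cells outside the neural lineage stayed low. The summed level of 10 endothelium and microglia genes had a median of 0.960 CPM in expressing cells (range 0 to 600) and 0.175 CPM in Olig2-zero cells (range 0 to 1098), with a median of 1 gene of the list counted per cell in both. The mesenchyme genes had medians of 5.26 CPM (range 0 to 1947) and 13.5 CPM (range 0 to 2814), and the pluripotency genes 0 in both classes.

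No gene passed the test of class within clones. Exon counts were summed per clone and class in the 31 clones with both, and 7423 genes were tested with the quasi-likelihood test of edgeR with the clone as block, leaving Olig2 out. At an adjusted p under 0.05, 0 genes (0.0%) were called, and the smallest adjusted p was 0.180. At an unadjusted p under 0.05, 1150 genes (15.5%) stood higher and 1 gene (0.0135%) lower in expressing cells. Over all genes the log2 difference had a median of 1.30, which was 1.79, 1.67, 1.33 and 0.75 in 4 equal bins of genes from low to high level, so the whole table was displaced upward, and most for weak genes. Other tools made calls on the same sums: DESeq2 called 3268 genes, 3253 of them higher, and limma-voom called 1, the mitochondrial rRNA gene mt-Rnr2, at −0.73 on the log2 scale.

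The displacement differed between fits, and its cause was not tested. It was 2.21 in SN clones alone, 0.13 in N clones alone and 0.25 without plate 3. With cells of at least 2000 genes it was 0.96, and with cells of at least 300000 exon counts 0.97. It was no larger than 0.09 in size in 4 fits chosen after the gap had been seen. With only cells of at least 5000 genes (16 clones, 20 expressing and 30 Olig2-zero cells) the median of all 7737 genes was 0.04, 0 genes (0.0%) were called by edgeR, and 63 (0.814%) and 42 (0.543%) had an unadjusted p under 0.05 upward and downward. With detected genes as a covariate the median was −0.09. This covariate was the log2 number of genes found in each sum, after thinning to the smallest sum, and not the number per cell. With 1 cell per class and clone, matched in genes detected, it was 0.04 over 15 clones. With all 44 and 72 deep cells and plate and clone type in place of the clone, it was 0.01 over 9069 genes, again with 0 called (0.0%), and with 140 (1.54%) and 83 (0.915%) at an unadjusted p under 0.05 upward and downward.

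The genes of smallest p among those higher in expressing cells were 3110082I17Rik, Psmg2 and S1pr1. S1pr1 encodes a receptor for sphingosine 1-phosphate. It averaged 56.5 CPM (SD 77.9) in expressing sums and 9.33 CPM (SD 24.5) in Olig2-zero sums, n = 31 clones each, a log2 difference of 6.15 ± 1.47 (SE, edgeR adjusted p = 0.180), higher in 22 clones and lower in 4. Psmg2, a proteasome assembly chaperone, stood at 6.15 ± 1.47 and 3110082I17Rik at 5.95 ± 1.37, with the same adjusted p by edgeR. In deep cells the 3 log2 differences were 5.33 ± 2.35 for S1pr1, 4.19 ± 1.95 for Psmg2 and 5.44 ± 1.98 for 3110082I17Rik, with an edgeR adjusted p of 1 each. All 3 genes had a median of 0 CPM in the Olig2-zero sums. With all cells and no clone block the differences were smaller, at 2.29 for S1pr1, 1.42 for Psmg2 and 2.79 for 3110082I17Rik. The genes of smallest p among those lower were Lipe, a lipase, Neurod6 and Rab21, a small GTPase, at −0.73 ± 0.34, −0.71 ± 0.41 and −1.99 ± 1.19, with edgeR adjusted p of 0.300, 0.361 and 0.369.

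The lists were set against the displaced median, which overstates the displacement of abundant genes, as the bins by level show. Of the 14 tested genes of the glial precursor list, 8 lay above 1.30, with a list median of 1.37. Bcan, a proteoglycan of glial precursors, stood at 3.24 ± 1.28, Olig1 at 1.51 ± 0.96 and Egfr at 1.43 ± 0.98. Pdgfra, of the oligodendrocyte lineage list, stood at 3.37 ± 1.38. In deep cells the median of the glial precursor list was −0.24, with Bcan at 2.73, Olig1 at 0.60 and Egfr at 0.49, and Pdgfra stood at 2.00. Of 16 tested radial glia genes 8 lay above the median of all genes, and in deep cells 11 of 17, with list medians of 1.30 and 0.32. Of 15 pan-neuronal genes 1 lay above it, and in deep cells 5 of 15, with list medians of 0.52 and −0.12. Of 11 tested excitatory neuron genes 3 lay above it, and in deep cells 3 of 12, with medians of 0.98 and −0.37. With detected genes as a covariate, the genes above the median of all genes were 8 of 14 glial precursor, 12 of 16 radial glia, 8 of 15 pan-neuronal and 7 of 11 excitatory neuron genes, so the low position of the neuronal lists was not kept there. Every one of these list counts had 0 genes called in all 3 fits.

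Fabp7 stood above 0, and Stmn2 and Neurod6 below it, in the fits of deeper cells. Fabp7 stood at 0.80 ± 0.30 in all cells, 0.81 ± 0.27 in deep cells within clones, 1.02 ± 0.29 in all deep cells without the clone block and 0.67 with the detected-gene covariate. The unadjusted p by edgeR was 0.00483 in deep cells within clones and 0.00079 without the block, with an adjusted p of 1 in both. Stmn2 stood at −0.20 ± 0.31 in all cells and at −0.49 ± 0.22 and −0.45 ± 0.20 in the 2 fits of deep cells. Neurod6 stood at −0.71 ± 0.41, then −1.09 ± 0.51 within clones and −0.21 ± 0.36 without the block. Dbi, which encodes an acyl-CoA-binding protein, stood at 0.86 ± 0.38 in all cells and 0.74 ± 0.40 in deep cells. In all cells, Fabp7 and Dbi both lay below the displaced median of 1.30 and near the 0.75 of the bin of highest level. Their values in all cells therefore do not set them apart from other abundant genes. Eomes, of intermediate progenitors, stood at 4.10 ± 1.28 in all cells, 3.47 with the covariate and 1.76 ± 1.26 in deep cells.

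**Figure D4:**
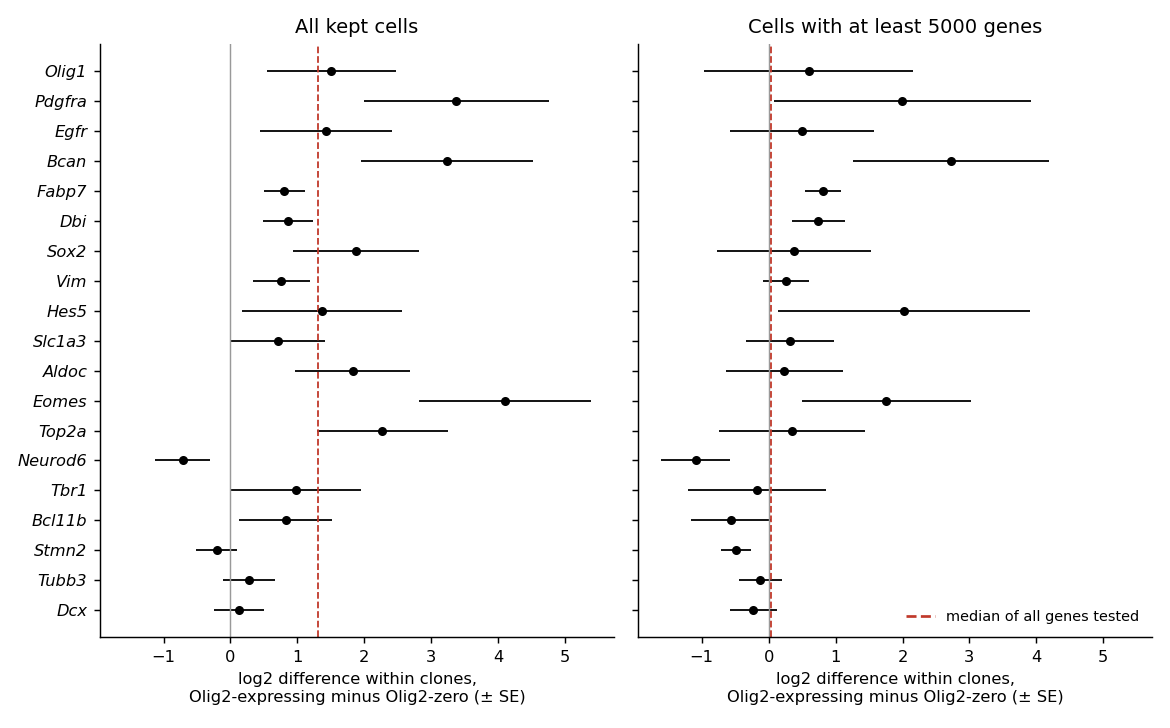
Log2 difference within clones, Olig2-expressing minus Olig2-zero, of 19 named genes (points, with bars of 1 SE) from all kept cells (left, 31 clones) and from cells with at least 5000 genes (right, 16 clones). The dashed red line is the median of all genes tested, 1.30 on the left and 0.04 on the right. Fabp7 is near 0.8 in both panels, which is below the line on the left and above it on the right. No gene shown passed the adjusted threshold.

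Other lists gave no call either. The 10 tested cell cycle genes had a median of 2.05, with 7 above the median of all genes, and in deep cells 0.91 with 11 of 13 above it. The chromosome segregation gene Cenpf stood at 3.57 ± 1.26 and Top2a, a topoisomerase of dividing cells, at 2.27 ± 0.98, whereas the proliferation antigen gene Mki67 stood at 0.05 ± 1.82. The 8 astrocyte genes had a median of 1.75, and 0.53 in deep cells, with Clu, which encodes clusterin, at 3.69 ± 1.53. The 6 intermediate progenitor genes had a median of 1.09 with 3 above the median of all genes, and 0.23 in deep cells with 4 of 6 above it. The 6 dorsal forebrain genes had a median of 1.04 with 2 above it, and −0.37 in deep cells with 1 of 6 above it. The 2 tested oligodendrocyte lineage genes, Olig1 and Pdgfra, had a median of 2.44, and the other 14 of that list, among them Sox10, Cspg4 and Nkx2-2, did not pass the filter on low counts. The 6 tested genes of the Notch pathway, which holds progenitors back from differentiation, had a median of 1.94 with 5 above the median of all genes, and −0.29 in deep cells with 2 of 5 above it. None of the 16 GABAergic and ventral forebrain genes passed it.

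Expressing cells varied with their Olig2 level. The 25 cells at 50 CPM or more had a median of 120 CPM of Olig2 and the 34 cells below it 23.1 CPM. The cells of high level came from smaller libraries, with a median of 5646 genes against 9530.5. Stmn2 had a median of 1383 CPM in the cells of high level and 2565 CPM in the others, Neurod6 80.6 and 252.6 CPM, Fabp7 2960 and 1831 CPM, and Slc1a3 126.4 and 46.8 CPM. Fabp7 exceeded Stmn2 in CPM in 19 of the 25 cells of high level. Sox10 ran the other way, counted in 4 of 25 and 12 of 34. In the 18 clones that held cells of 50 CPM or more beside Olig2-zero cells, edgeR called 0 of 5606 genes (0.0%), and 17 (0.303%) and 47 (0.838%) had an unadjusted p under 0.05 upward and downward. All genes had a median of −0.18. Neurod6 stood at −2.16 ± 0.83 there, Stmn2 at −0.92 ± 0.39 and Fabp7 at 0.56 ± 0.37.

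The 4 cells of highest Olig2 level show this range. Clone 44 cell 4, an SN clone, held 611 CPM of Olig2, 93.7 of Olig1, 2249 of Fabp7 and 3041 of Stmn2, with no Neurod6, Sox10 or Pdgfra count. Clone 64 cell 2, also SN, held 410 CPM of Olig2, 672 of Olig1, 2406 of Top2a and no Stmn2. Clone 21 cell 1, an N clone, held 368 CPM of Olig2, 215.2 of Olig1, 83.3 of Fabp7, 3953 of Stmn2 and 308 of Neurod6. Clone 61 cell 3, an SN clone, held 316 CPM of Olig2, 703 of Olig1, 432 of Egfr, 2960 of Fabp7 and 1.95 of Neurod6. No single profile was shared by all 4.

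Both clone types held Olig2-expressing cells. They made up 27.5% of kept cells in SN clones (36 cells; 95% interval 20.6 to 35.7%) and 19.8% in N clones (23 cells; 95% interval 13.6 to 28.0%). At least 1 was found in 24 of 46 SN clones and 14 of 22 N clones. Among clones with at least 2 kept cells, the share per clone averaged 28.5% (SD 27.8, n = 42) in SN clones and 24.6% (SD 25.2, n = 20) in N clones. This difference of 3.95 percentage points was smaller than the spread between clones (two-sided permutation test, p = 0.588). On plate 1 it was 1.92 points (p = 0.971), on plate 2 −2.02 points (p = 0.864), and on plate 3 20.8 points, 45.5% (SD 23.7, n = 13) against 24.7% (SD 15.4, n = 8), with p = 0.0419 by the same permutation test, not adjusted for the 3 plates.

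The share differed more between plates than between clone types. Expressing cells made up 6 of 90 kept cells on plate 1 (6.67%, 3.09 to 13.8%), 26 of 80 on plate 2 (32.5%, 23.2 to 43.4%) and 27 of 77 on plate 3 (35.1%, 25.3 to 46.2%). At 5000 genes or more the shares were 5 of 48 on plate 1, 19 of 48 on plate 2 and 20 of 36 on plate 3, and the median number of genes per kept cell was 5235, 5859.5 and 4582 on plates 1, 2 and 3. What else differed between plates is not in the labels, and the part of plate in the result was not tested.

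**Figure D5:**
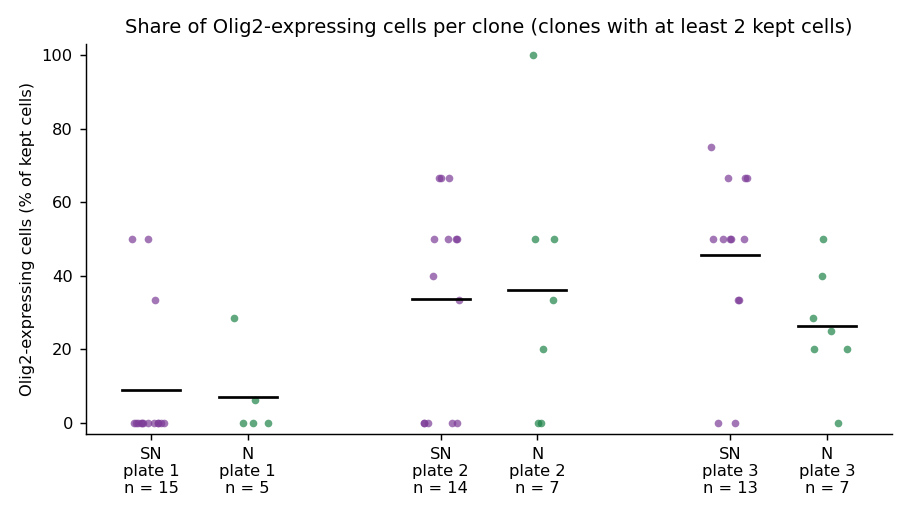
Percentage of kept cells that were Olig2-expressing in each clone (points), by plate and clone type (SN purple, N green), with the mean of each group as a bar; clones with at least 2 kept cells are drawn, except clone 45, which has cells on plates 2 and 3. Most plate 1 clones lie at 0, and most clones of plates 2 and 3 lie above it.

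Within clones, expressing and Olig2-zero cells were mixed. Of the 38 clones with an expressing cell, 20 had 1, 15 had 2 and 3 had 3. Clone 25, an N clone, was the only clone with at least 2 kept cells in which all were expressing. Clones with both colours of expressing cells numbered 6, and 12 clones had at least 2 expressing cells in 1 colour only. In the 45 clones with kept cells of both colours the share averaged 24.2% (SD 39.3) of green and 26.9% (SD 38.7) of red cells, a difference of −2.71 points that was smaller than its spread (two-sided sign-flip permutation test, p = 0.771).

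Expressing cells of SN and N clones were set side by side without a test. Olig1 was counted in 29 of 36 expressing cells of SN and 21 of 23 of N clones, Egfr in 25 and 19, and Sox10 in 10 and 6. Olig2 itself had medians of 45.4 and 41.7 CPM. Pdgfra was found in 13 of 36 and 14 of 23. Fabp7 had medians of 2931 and 1755 CPM, and the Fabp7 to Stmn2 ratio was above 1 in 23 of 36 and 8 of 23 cells. At least 5000 genes were detected in 24 of 36 and 20 of 23. In a test of whether the class difference itself differed between clone types, edgeR called 2 of 7423 genes (0.0269%), Taf15 (not called without the filter on low counts) and Gnb5, and none of the identity genes named above.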

How the data were processed

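Single cells were sequenced by Smart-seq3, and the exon and intron counts per gene and cell are used as deposited by the authors. The submitters' processing notes name STAR 2.7.9a, R 4.4.0 and GRCm39 without their roles. How reads were counted, with which annotation and whether by molecular identifier, is not given in the sources used here. Of 55359 gene IDs, 52083 matched a symbol, with 83.4% of exon counts. No 2 kept cells held identical exon counts. The members and gene lists were chosen with earlier results of these data known.

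CPM were computed per cell on exon counts. Cells needed 1000 genes with an exon count, and 3 cells without a clone label were left out. Exon counts were summed per clone and class and tested with edgeR 4.0.16 (quasi-likelihood, TMM, filterByExpr, clone as block, Benjamini-Hochberg threshold 0.05), in R 4.3.3; SE is the log2 difference over the root of F. The clone pairs the sums because both come from 1 labelled clone. Cell measures were tested by flipping signs within clones and shares by permuting clones (exact, or 100000 resamples, whose smallest p is 1e-05), with scipy 1.17.1. Intervals are 95% Wilson. DESeq2 1.42.0 and limma 3.58.1 were alternatives. Named genes were the 3 of smallest p in each direction with a count in at least 10 cells, a set of identity genes and the 2 members of smallest p per list. Gpr17, Bcas1, Mag, Mog, Mbp and mt-Rnr2 were added after their values were seen. Some genes of these sets entered the fits and list counts and are not reported here. The test was checked on simulated counts with the same dispersion for every gene and no clone effect. It was not checked under a displacement of the whole table, as seen here.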

Additional observations from a re-analysis of the deposited data

Results flagged for a closer look

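For 2 genes the difference between Olig2-expressing and Olig2-zero cells itself differed between SN and N clones. Taf15, which encodes an RNA-binding protein, averaged 205.2 CPM (SD 204.3) in expressing and 33.8 CPM (SD 66.7) in Olig2-zero sums of 18 SN clones, higher in 17. In 13 N clones it averaged 98.8 CPM (SD 108.2) in expressing and 230.6 CPM (SD 203.3) in Olig2-zero sums, higher in 2. The log2 difference in SN clones exceeded that in N clones by 7.74 ± 1.65 (SE, edgeR adjusted p = 0.0450), a call that was lost with no filter on low counts.

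Gnb5, a G protein subunit, averaged 83.1 CPM (SD 132.6) in expressing and 37.8 CPM (SD 160.6) in Olig2-zero sums of SN clones, higher in 12 of 18. In N clones it averaged 33.7 CPM (SD 46.9) and 114.5 CPM (SD 145.7), higher in 3 of 13. The log2 difference between the types was 12.0 ± 2.41 (SE, edgeR adjusted p = 0.0339). The median of this difference over all 7423 genes was 2.29, so the whole table was displaced here too. For Taf15 and Gnb5 alike, the fitted log2 value is far larger than the mean CPM would give. It is therefore not to be read as a fold change of the means, and the reason was not tested. The excess of detected genes in expressing cells was 4130 in SN clones (higher in 15 of 18) and 3755 in N clones (higher in 12 of 13), which did not differ beyond the spread between clones (two-sided permutation test, p = 0.807).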

How the results depend on the processing

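The count of 0 genes within clones depended on the test. DESeq2 called 3268 genes, limma-voom 1, edgeR 91 in SN clones alone and 1 without plate 1. A limma fit of mean log2(CPM + 1) per clone and class, with each cell weighed equally, called 4149. The difference between clone types was called for 1 gene, Gnb5, with no filter on low counts, and Taf15 was lost. Taking out the replicate block (67 clones, with plate and clone type as terms) left 0 of 9138 genes called, with a median of all genes of 0.30. At 50 CPM of Olig2 or more, the difference in log2 total counts was 0.81, in genes 1566, in thinned genes 845 and in intron share −0.568 points, which was −1.85 points without plate 3. The share of expressing cells, SN minus N, was −2.02 points on plate 2 and 20.8 points on plate 3, and green minus red was 4.17 points on plate 1 and 2.22 points on plate 3. The cause of these changes was not tested.

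Of 770 gene values under alternatives, for 41 named genes, 642 kept their direction and side of the threshold, 58 passed it only under DESeq2, with equal weights or without plate 1, and 70 had the other sign, in 23 genes. The fits on cells with at least 5000 genes, with matched cells and with the covariate were chosen after seeing the data. With 1 cell per class and clone, matched in genes detected, the other sign was found for Lipe at 0.071, Egfr at −0.025, Sox2 at −1.54, Tbr1 at −1.23, Bcl11b at −0.37, Dcx at −0.64, Mapt at −0.12 and Reln at −0.25. With expressing cells at 50 CPM or more, the other sign was found for Olig1 at −0.25, Egfr at −0.46, Slc1a3 at −0.25, Tbr1 at −0.65, Bcl11b at −0.19, Tubb3 at −0.41, Dcx at −0.54, Mki67 at −0.27, Mapt at −0.17, Reln at −3.16 and Tcf7l2 at −0.31. With detected genes as a covariate, the other sign was found for Pax6 at −0.24, Tbr1 at −0.13, Tubb3 at −0.30, Mki67 at −2.81, Btg2 at −0.75, Dll1 at −0.65, Emx2 at −0.34, Gap43 at −0.014 and Notch1 at −0.51. Among cells with at least 5000 genes, the other sign was found for Pax6 at −0.41, Tbr1 at −0.18, Bcl11b at −0.56, Tubb3 at −0.12, Dcx at −0.23, Mki67 at −1.14, Emx1 at −1.17, Dll1 at −0.68, Emx2 at −0.69 and Fezf2 at −0.80. Without plate 3, the other sign was found for Tbr1 at −0.35, Mki67 at −2.29, Btg2 at −2.99, Emx2 at −0.55, Fezf2 at −0.40 and Reln at −0.91. Among cells with at least 5000 genes and with no replicate block, the other sign was found for Tbr1 at −0.016, Bcl11b at −0.27, Tubb3 at −0.20, Mki67 at −1.28, Emx1 at −1.90, Dll1 at −0.41, Fezf2 at −0.32, Gap43 at −0.041, Reln at −0.46 and Rspo3 at −0.66. With all cells and no replicate block, the other sign was found for Bcl11b at −0.039, Mki67 at −0.92, Emx1 at −0.66 and Dll1 at −0.12. In N clones alone, the other sign was found for Bcl11b at −0.74, Tubb3 at −0.46, Dcx at −0.13 and Gap43 at −0.23. With each cell weighed equally, the other sign was found for Stmn2 at 0.53. In SN clones alone, the other sign was found for Stmn2 at 0.24 and Mki67 at −0.81. By limma-voom, the other sign was found for Tubb3 at −0.10, Mki67 at −0.51 and Emx1 at −0.17. Among cells with at least 2000 genes, the other sign was found for Mki67 at −0.86. Without clone 16, the other sign was found for Mki67 at −0.16. Depth limits the Olig2-zero class, since in 39 of its cells 10 CPM is under 3 counts.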
